A study of Mus musculus with 6 samples.

Results

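The collagen gene family was described in inguinal white adipose tissue, the subcutaneous fat depot of the groin, of mice that had lived alone or in company. Its members were taken by name: every gene of the deposited table whose symbol reads Col, digits, a, digits, which gave 44 of 56691 genes. The samples came from 6 male C57BL/6J mice aged 8 weeks at the outset, kept for 8 weeks either at 4 to 6 animals per cage (group housing, 3 mice) or at 1 animal per cage (single housing, 3 mice). No other treatment or genetic change is named for either group, so the strain, sex, age and duration are shared and cage occupancy is what was compared. Each mouse gave 1 RNA-seq library, numbered 1 to 3 within its housing group. The labels do not say which of these mice shared a cage or a litter.

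Collagens are the main structural proteins of the extracellular matrix, built of chains that wind around each other into a helix. Fibrillar collagens (types I, III and V among others) form the tension-bearing fibres, type IV forms the sheet-like network of basement membranes, and type VI forms beaded filaments that link cells to the fibres. In fat, every adipocyte is wrapped in a basement membrane, progenitor cells and fibroblasts make most of the fibrillar collagen, and type VI collagen is known for its part in how far adipocytes can expand.

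Promoter sequences of 35 of the 44 genes were held in the RefSeq table (build GRCm38.p6), each reaching from 250 bases before the transcription start to 50 bases after it. Below are those of a type I chain, of the most abundant collagen of this fat and of the collagen with the smallest p-value, all 5' to 3' on the gene's own strand, with capitals marking the TATA box letters TATAAA, the motif known as the CCAAT box and the GC box letters GGGCGG, or their reverse complements. The Col1a2 window is chr6:4505368-4505667 (+ strand), the Col3a1 window is chr1:45311288-45311587 (+ strand) and the Col8a1 window is chr16:57754688-57754987 (- strand).
Col1a2: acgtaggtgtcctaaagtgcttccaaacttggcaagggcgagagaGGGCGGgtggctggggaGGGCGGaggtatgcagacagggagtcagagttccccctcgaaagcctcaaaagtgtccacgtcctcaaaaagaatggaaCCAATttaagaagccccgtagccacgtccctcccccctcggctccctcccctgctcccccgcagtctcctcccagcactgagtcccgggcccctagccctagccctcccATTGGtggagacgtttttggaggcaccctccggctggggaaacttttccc
Col3a1: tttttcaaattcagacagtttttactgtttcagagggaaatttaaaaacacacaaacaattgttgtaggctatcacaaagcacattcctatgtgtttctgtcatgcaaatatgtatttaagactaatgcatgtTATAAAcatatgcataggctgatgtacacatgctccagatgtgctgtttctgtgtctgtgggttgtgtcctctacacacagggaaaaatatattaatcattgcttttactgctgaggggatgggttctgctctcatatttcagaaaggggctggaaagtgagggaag
Col8a1: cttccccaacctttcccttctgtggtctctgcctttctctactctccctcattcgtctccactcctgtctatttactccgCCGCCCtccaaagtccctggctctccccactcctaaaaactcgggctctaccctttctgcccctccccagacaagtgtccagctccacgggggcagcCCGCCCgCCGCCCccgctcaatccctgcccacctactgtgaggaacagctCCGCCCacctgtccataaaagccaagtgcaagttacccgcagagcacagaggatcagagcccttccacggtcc
The Col1a2 window held 2 GGGCGG and 2 CCAAT matches, that of Col3a1 held 1 TATAAA match, and that of Col8a1 held 4 GGGCGG matches, all on the opposite strand. Over both strands and without regard to overlap, GGGCGG occurred in 35.7% of the 32851 mouse promoter windows of this length and in 23 of the 38 windows of the 35 collagen genes, or 60.5%. CCAAT occurred in 37.4% of all windows and 34.2% of the collagen windows, and TATAAA in 13.6% and 13.2%. These matches are descriptions of the letters in the windows.

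Col4a1 and Col4a2, which encode the chains of the common type IV collagen, lie head to head and are transcribed away from each other. The stretch between and around their starts is shown because the FPKM of this pair are compared further on. It covers chr8:11312775-11312846 (GRCm38.p6, + strand), and capitals mark the 22 bases that both genes transcribe.
Col4a1 and Col4a2: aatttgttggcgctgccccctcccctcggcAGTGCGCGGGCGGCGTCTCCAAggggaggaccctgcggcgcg

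The libraries differed in make-up, both within and between the housing groups. Library totals ran from 22002000 to 33982084 counts in group and from 21410779 to 35318376 counts in single housing. The summed FPKM (fragments per kilobase of exon, scaled to the library total) of 15 skeletal muscle markers ran from 39.3 to 1389 in the group-housed libraries and from 45.7 to 3858 in the single-housed ones, with group-housed library 2 and single-housed library 3 the highest of their groups. None of these 15 markers was at 0 in all 6 libraries. All 15 had a log2 fold change above 0, where 48.1% of all genes did. Single-housed libraries 1 and 2, at 55.1 and 45.7 FPKM, nevertheless lay below group-housed libraries 1 and 2, at 338.9 and 1389 FPKM. The 10 adipocyte markers summed to 5961 to 11270 FPKM in group and 7025 to 9598 FPKM in single housing, so the labelled tissue showed its markers in every library. Mitochondrial genes took 6.02% to 7.53% of the counts in group and 9.19% to 12.1% in single housing, without overlap. The part of any of these differences in the collagen values was not tested, beyond the fits without the muscle-rich libraries and with a muscle covariate given below.

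Inguinal fat expressed a narrow subset of the family at high levels. Of the 44 genes, 12 averaged at least 10 FPKM over the 6 libraries, 9 averaged 1 to 10 FPKM and 23 less than 1 FPKM. Col3a1, the chain of type III collagen, was the most abundant at 140.5 FPKM, followed by the basement membrane chains Col4a1 at 103 FPKM and Col4a2 at 61.5 FPKM. Then came Col6a1 at 49.7, Col1a1 at 45.6, Col5a3 at 45.2 and Col1a2 at 40.5 FPKM, followed by Col15a1, Col6a2, Col6a3, Col5a2 and Col5a1 between 32.6 and 13.7 FPKM. FPKM divide by the summed exon length, so this order depends on that length. It is 12426 bases for Col1a2, whose longest coding transcript has 5348, and 4380 for Col6a1, whose longest has 4100. In total 34 members passed the filter on low counts and were tested. The 10 others, among them the cartilage chains Col2a1, Col9a1 and Col9a2 and the growth plate chain Col10a1, had at most 17 counts and 0.14 FPKM in any library. They are Col2a1, Col4a6, Col8a2, Col9a1, Col9a2, Col10a1, Col19a1, Col22a1, Col25a1 and Col26a1.

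**Figure D1:**
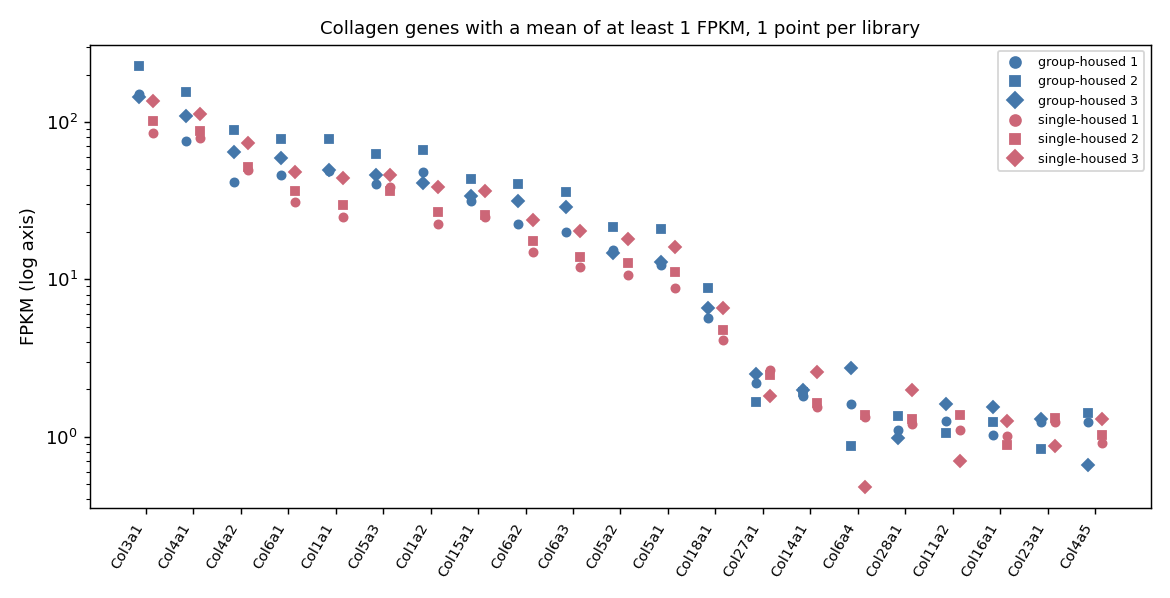
FPKM on a log axis of the 21 collagen genes that averaged at least 1 FPKM, with 1 point per library, colour for housing and shape for library number. Col3a1 is the most abundant, and in the abundant genes group-housed library 2 is the highest point of its group and single-housed library 3 the highest of its own.

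Fewer collagen transcripts were counted in fat of singly housed mice on average, with overlap between the groups. All 44 genes together took 0.477%, 0.771% and 0.534% of the counts in the group-housed libraries, in the order 1, 2, 3 used throughout, against 0.337%, 0.38% and 0.513% in the single-housed ones. The mean was 0.594% ± 0.156 (SD, n = 3) in group and 0.41% ± 0.0919 (SD, n = 3) in single housing, and single-housed library 3 lay above group-housed library 1. Without mitochondrial counts the means were 0.637% and 0.458%. In bulk tissue, fewer collagen-producing cells and less collagen RNA per cell cannot be told apart.

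The summed FPKM by class placed the difference mainly in the fibrillar and type VI collagens. Fibrillar collagens summed to 319, 479.8 and 312 FPKM in group housing and to 194, 222 and 301 FPKM in single housing, so that all single-housed libraries lay below all group-housed ones. The margin was small, and FPKM carry no composition correction. After TMM scaling, which corrects for composition, the groups of Col1a1, Col1a2 and Col3a1 overlapped. On the FPKM scale 9.01% of all genes were lower in single housing without overlap, and 4.86% were higher. Type VI chains summed to 91.6, 156 and 124 FPKM against 61.0, 70.9 and 94.3 FPKM, where single-housed library 3 exceeded group-housed library 1. Type IV chains summed to 120.3, 248 and 175 FPKM against 129.8, 142 and 189 FPKM, with the groups interleaved. The share of type IV within all collagen FPKM was 20.9%, 26.2% and 26.5% in group and 30.7%, 29.9% and 29.7% in single housing, with no overlap. This share was looked at after the values were seen and was not tested.

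**Figure D2:**
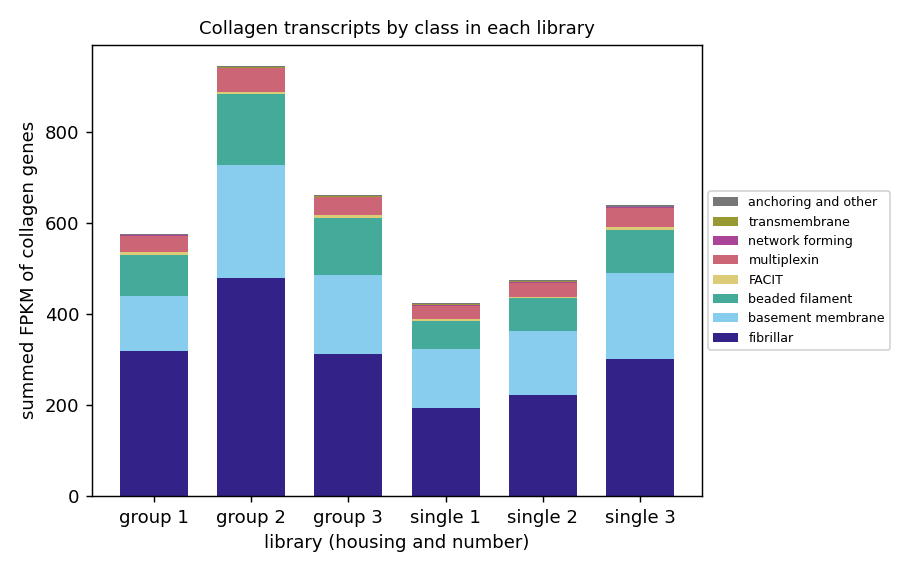
Summed FPKM of collagen genes in each library, stacked by class, with group-housed libraries on the left and single-housed ones on the right. The stacks run from 576 to 944 FPKM in group housing and from 423 to 639 FPKM in single housing, and the fibrillar block is lower in all 3 single-housed libraries. These FPKM carry no composition correction.

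No collagen gene passed the test between single and group housing. By edgeR's quasi-likelihood test on the counts with Benjamini-Hochberg adjustment, 0 of 34 members reached an adjusted p below 0.05, where 0.0% of the 18085 genes tested did, and the smallest adjusted p of a member was 0.604. At an unadjusted p below 0.05, 2 members were higher in single housing (Col8a1 and Col13a1), where 3.49% of all genes were, and 2 were lower (Col6a3 and Col9a3), where 3.47% were. By DESeq2, 207 genes (1.14%) but 0 members were called, and 2 members were higher (4.09% of all genes) and 5 lower (3.77%) at an unadjusted p below 0.05. The log2 fold change was below 0 in 19 of the 34 members, where 51.9% of all genes were, and its median was -0.19 against -0.01 over all genes. Among the 12 collagens of at least 10 FPKM it was below 0 in 12 of 12, with a median of -0.41, where 54.4% of the 4911 genes of that level were below 0, with a median of -0.02.

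Type I and type III collagen, the chains of the thick and thin fibres, had a lower mean FPKM in single housing and did not pass the test. Col1a1 (chr11:94827050-94843868, mm39) stood at 48.5, 77.4 and 49.2 FPKM in group housing and at 24.7, 29.7 and 43.8 FPKM in single housing. Col1a2, its partner chain, stood at 48.4, 66.6 and 40.7 FPKM against 22.4, 26.7 and 38.3 FPKM. Col3a1 stood at 149.8, 228 and 143 FPKM against 85.1, 101 and 136 FPKM. In all 3 genes every single-housed library lay below every group-housed one on the FPKM scale, where 9.01% of all genes did so, and Col9a3 was the only other member that did. After TMM scaling, which corrects for composition, the groups of the 3 fibre genes overlapped. The log2 fold changes (single minus group) were -0.74 ± 0.33 (SE) for Col1a1, -0.74 ± 0.32 for Col1a2 and -0.60 ± 0.31 for Col3a1, with adjusted p of 0.734, 0.724 and 0.785 by edgeR.

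Type V collagen, which sets the diameter of type I fibrils, differed less. Col5a3, the most abundant type V chain here, stood at 40.5, 63.0 and 46.3 FPKM in group and 38.8, 36.6 and 45.85 FPKM in single housing. Its groups overlapped, and its log2 fold change was -0.22 ± 0.24 (edgeR's adjusted p 0.879). Col5a1 and Col5a2 had log2 fold changes of -0.25 ± 0.33 and -0.23 ± 0.29. The minor fibrillar genes Col11a1, Col11a2, Col24a1 and Col27a1 averaged between 0.0533 and 2.21 FPKM, and over the whole class 8 of 10 tested genes lay below 0, where 51.9% of all genes did, with a median log2 fold change of -0.24.

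**Figure D3:**
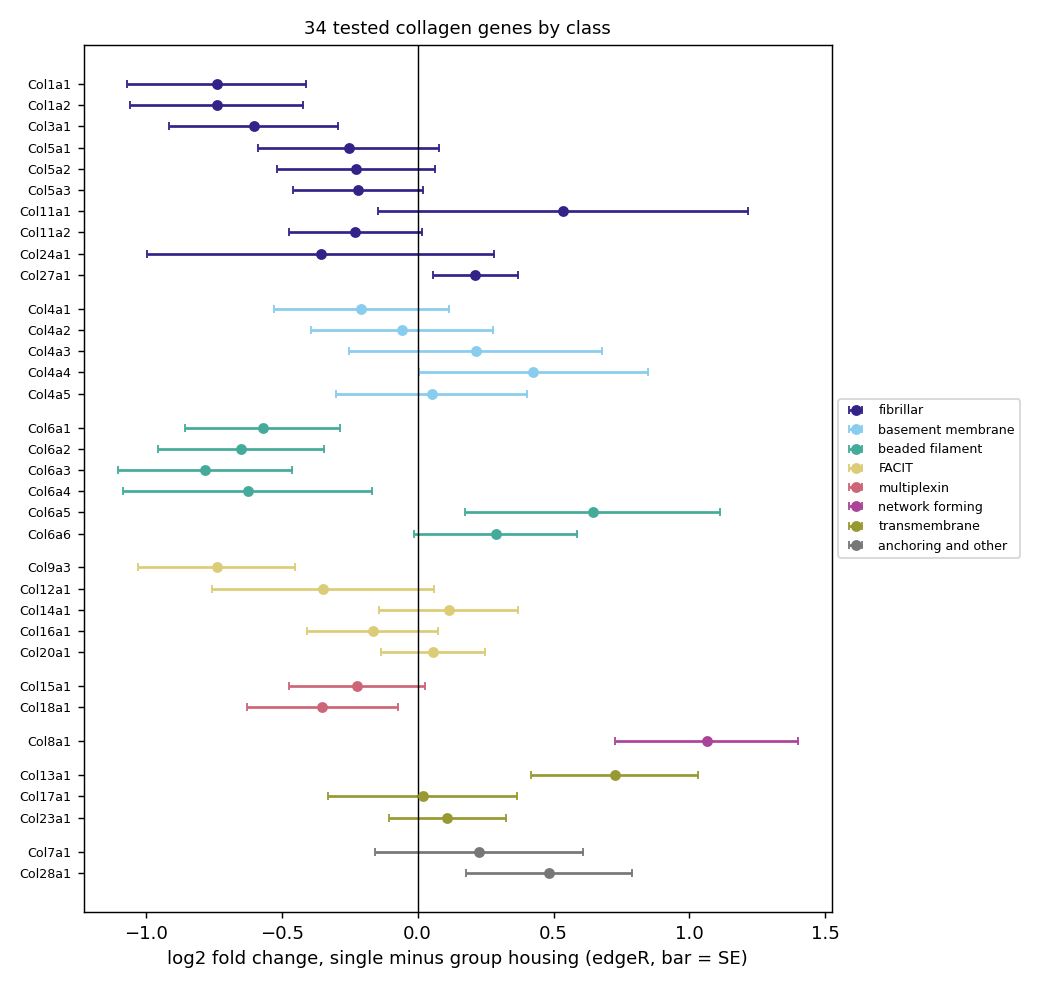
Log2 fold change, single minus group housing, of the 34 tested collagen genes by edgeR, ordered and coloured by class, with bars of 1 standard error. Fibrillar chains of types I and III and the type VI chains Col6a1 to Col6a3 lie between -0.57 and -0.78, and Col8a1 lies at 1.06.

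Type IV collagen of the basement membrane overlapped between the groups, and none of its chains passed the test, as for types I, III and VI. Whether the classes differ from each other was not tested. Col4a1 (chr8:11248423-11362826, mm39, - strand) stood at 76.2, 156 and 109.7 FPKM in group housing and at 78.5, 87.15 and 113 FPKM in single housing. Col4a2 (chr8:11362805-11499287, + strand) stood at 41.7, 88.3 and 64.0 FPKM against 49.4, 51.9 and 73.5 FPKM. The groups overlapped in both, with group-housed library 2 the highest of all 6 and group-housed library 1 the lowest. Their log2 fold changes were -0.21 ± 0.32 and -0.06 ± 0.34, with adjusted p of 0.916 and 0.978 by edgeR. Without group-housed library 2 both turned to 0.15 and 0.30. Col4a5, a chain of the type IV network known from the kidney filter, stood at 1.23, 1.41 and 0.66 FPKM against 0.91, 1.02 and 1.29 FPKM, and its log2 fold change was 0.05 ± 0.35. Col4a3 and Col4a4, which pair with Col4a5 there, had log2 fold changes of 0.21 ± 0.47 and 0.43 ± 0.42, and Col4a3 overlaps an opposite-strand gene that had 10.8% as many counts.

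The 3 classic chains of type VI collagen shared 1 order of the libraries within each group. Col6a1 stood at 46.3, 77.5 and 59.0 FPKM in group and at 30.9, 36.3 and 48.15 FPKM in single housing. Col6a2 stood at 22.4, 40.5 and 31.3 FPKM against 14.9, 17.4 and 23.9 FPKM. Col6a3 (chr1:90693645-90771693, mm39), whose chain is cut to release the signalling fragment endotrophin, stood at 20.03, 36.1 and 28.9 FPKM against 12.0, 13.8 and 20.4 FPKM. In each gene single-housed library 3 lay above group-housed library 1, and the other single-housed libraries lay below all of the group-housed ones. The log2 fold changes were -0.57 ± 0.28, -0.65 ± 0.31 and -0.78 ± 0.32, and edgeR's unadjusted p for Col6a3 was 0.0446 with an adjusted p of 0.707. Without group-housed library 2 the log2 fold changes were -0.30, -0.36 and -0.51.

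The later-found type VI chains Col6a4, Col6a5 and Col6a6 had lower levels than the classic ones. Col6a4 stood at 1.62, 0.87 and 2.73 FPKM in group and 1.33, 1.38 and 0.48 FPKM in single housing. Its log2 fold change was -0.63 ± 0.46, with the groups overlapping. Col6a5 had a log2 fold change of 0.64 ± 0.47 and Col6a6 of 0.29 ± 0.30. Col6a4 and Col6a5 were lowest within their groups in group-housed library 2 and single-housed library 3, where Col6a1 to Col6a3 and Col6a6 were highest within theirs.

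The collagens of the basement membrane zone overlapped between the groups. Col15a1, a proteoglycan collagen of the basement membrane zone, stood at 31.3, 43.2 and 34 FPKM in group and 24.95, 25.7 and 36.4 FPKM in single housing. Its relative Col18a1, the source of endostatin, stood at 5.69, 8.81 and 6.53 FPKM against 4.09, 4.77 and 6.59 FPKM. Both overlapped between groups, with log2 fold changes of -0.22 ± 0.25 and -0.35 ± 0.28. Col18a1 overlaps Slc19a1 on the opposite strand, which had 55.8% as many counts, and without knowing the strand setting of the count their reads cannot be told apart.

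Among the fibril-associated collagens, Col14a1 stood at 1.81, 1.93 and 1.99 FPKM in group and 1.55, 1.64 and 2.57 FPKM in single housing. Col16a1 stood at 1.03, 1.23 and 1.54 FPKM against 1.01, 0.89 and 1.25 FPKM. These groups overlapped, with log2 fold changes of 0.12 ± 0.26 and -0.17 ± 0.24. Col9a3, a chain of the type IX collagen best known from cartilage, had 45, 35 and 87 counts (0.53, 0.41 and 0.66 FPKM) against 53, 25 and 20 counts (0.39, 0.30 and 0.21 FPKM). On the FPKM scale and after TMM scaling the groups of Col9a3 did not overlap, as in 6.78% of all genes after scaling. Its log2 fold change was -0.74 ± 0.29 (edgeR's unadjusted p 0.0366, adjusted p 0.694). Col12a1 and Col20a1 averaged 0.533 and 0.83 FPKM, and Col20a1 overlaps a gene on the same strand that had 180.9% as many counts.

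Col8a1, a short-chain network collagen of vessel walls, had the smallest p-value of the family. It had 88, 134 and 95 counts (0.51, 0.78 and 0.36 FPKM) in group and 270, 191 and 222 counts (0.98, 1.14 and 1.14 FPKM) in single housing. All 3 single-housed libraries exceeded all group-housed ones, on the FPKM scale, where 4.86% of all genes did, and after TMM scaling, where 6.61% did. The log2 fold change of Col8a1 (chr16:57444621-57575100, mm39) was 1.06 ± 0.34, a 2.09-fold difference, with an unadjusted p of 0.0155 and an adjusted p of 0.604 by edgeR. Its level stayed near 1 FPKM, so it contributed little to the collagen total.

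The transmembrane and remaining collagens were low. Col13a1, a transmembrane collagen of cell adhesion sites, had 32, 34 and 37 counts (0.31, 0.33 and 0.23 FPKM) in group and 94, 50 and 35 counts (0.57, 0.50 and 0.30 FPKM) in single housing. Single-housed library 3 lay within the group-housed range, and the log2 fold change was 0.73 ± 0.31 (edgeR's unadjusted p 0.0499, adjusted p 0.718). Col23a1, another transmembrane collagen, stood at 1.23, 0.84 and 1.30 FPKM against 1.24, 1.31 and 0.87 FPKM. Col28a1, a collagen best known from peripheral nerve, stood at 1.10, 1.36 and 0.98 FPKM against 1.21, 1.30 and 1.98 FPKM. The groups of these genes overlapped, with log2 fold changes of 0.11 ± 0.21 and 0.48 ± 0.31. Col17a1 and Col7a1, known from the skin's epidermal anchorage, averaged 0.178 and 0.408 FPKM.

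The abundant collagens shared the library with the highest level in each group. After TMM scaling 23 of the 34 tested members were highest in group-housed library 2 among the group-housed and in single-housed library 3 among the single-housed, where 29.6% of all genes were. All 12 collagens of at least 10 FPKM were highest in these libraries, where 37.9% of the 4911 genes of that level did. Another 7 members (Col6a4, Col6a5, Col9a3, Col11a2, Col17a1, Col23a1 and Col27a1) were lowest in both libraries, where 28.9% of all genes were. These libraries are the muscle-rich ones, and they were also the lowest of their groups in the summed FPKM of T and NK cell markers, at 113 and 64.7 against 205 to 243 in the others. They were the lowest of their groups in B and plasma cell markers too, at 402.3 and 221.5 FPKM. In adipocyte markers they were the highest of their groups, at 11270 and 9598 FPKM. The part of muscle, fat or lymphoid content in this shared order was not tested.

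Leaving out both muscle-rich libraries kept the direction of the fibre collagens, and their errors were smaller. All 12 collagens of at least 10 FPKM were highest in their groups in these libraries, so a smaller spread follows from that choice. Group-housed library 1, which was kept, held 338.9 FPKM of muscle markers. Group-housed library 3 held 39.3 FPKM, and single-housed libraries 1 and 2 held 55.1 and 45.7 FPKM. With 2 libraries per group, the log2 fold changes were -0.77 ± 0.13 for Col1a1, -0.79 ± 0.16 for Col1a2, -0.59 ± 0.16 for Col3a1, -0.85 ± 0.17 for Col6a3 and 1.37 ± 0.24 for Col8a1. By edgeR 22 of 18837 genes (0.117%) but 0 members passed, with a smallest adjusted p of 0.101 among members. At an unadjusted p below 0.05, 12 of 36 members were lower, where 5.96% of all genes were, and 3 were higher, where 6.08% were. The 12 were Col1a1, Col1a2, Col3a1, Col5a2, Col6a1, Col6a2, Col6a3, Col6a4, Col9a3, Col15a1, Col18a1 and Col24a1. Leaving out single-housed library 3 alone gave 10 lower members (3.98% of all genes), while leaving out group-housed library 2 alone gave 1 (3.85%) and brought Col1a1 to -0.42, Col1a2 to -0.46 and Col3a1 to -0.30. Leaving out group-housed library 2 gave 3 higher members (5.72%), leaving out single-housed library 3 gave 2 (2.05%), and leaving out group-housed library 1 gave 0 (1.74%). Without single-housed library 2, 0 members were lower (2.37%).

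Other ways of fitting all 6 libraries moved the same counts at an unadjusted p below 0.05. Without the filter on low counts, 7 of 44 members were lower (2.76% of all genes) and 2 higher (2.61%), 1 of which was Col10a1, which shares its place with the opposite-strand gene Nt5dc1. The 7 were Col1a1, Col1a2, Col3a1, Col6a1, Col6a2, Col6a3 and Col9a3, and 0.159% of all genes passed the adjusted threshold. By limma on FPKM, which hold no composition correction, 6 of 21 members were lower with a pseudocount of 1 (5.03% of all genes) and 6 with one of 0.1 (4.91%), and 0 were higher (2.65% and 2.63%). Those 6 were the type I, type III and classic type VI chains in both limma fits. Col8a1, Col9a3 and Col13a1 averaged 0.818, 0.417 and 0.373 FPKM, below the limit of 1 FPKM, and were not in the limma fits.

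With the muscle marker level as a covariate, 1027 genes (5.68%) and 4 members passed by edgeR, and at an unadjusted p below 0.05, 9 members were lower (12.4%) and 4 higher (10.4%). Col1a1 had a log2 fold change of -0.75 ± 0.15 (adjusted p 0.0271) and Col1a2 one of -0.73 ± 0.13 (adjusted p 0.017). Col6a4, at -0.68 ± 0.15, had an adjusted p of 0.0401, and Col8a1, at 1.13 ± 0.24, one of 0.0327. This fit estimates the covariate and the spread from the same 6 libraries, and its calls were not made without the covariate.

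**Figure D4:**
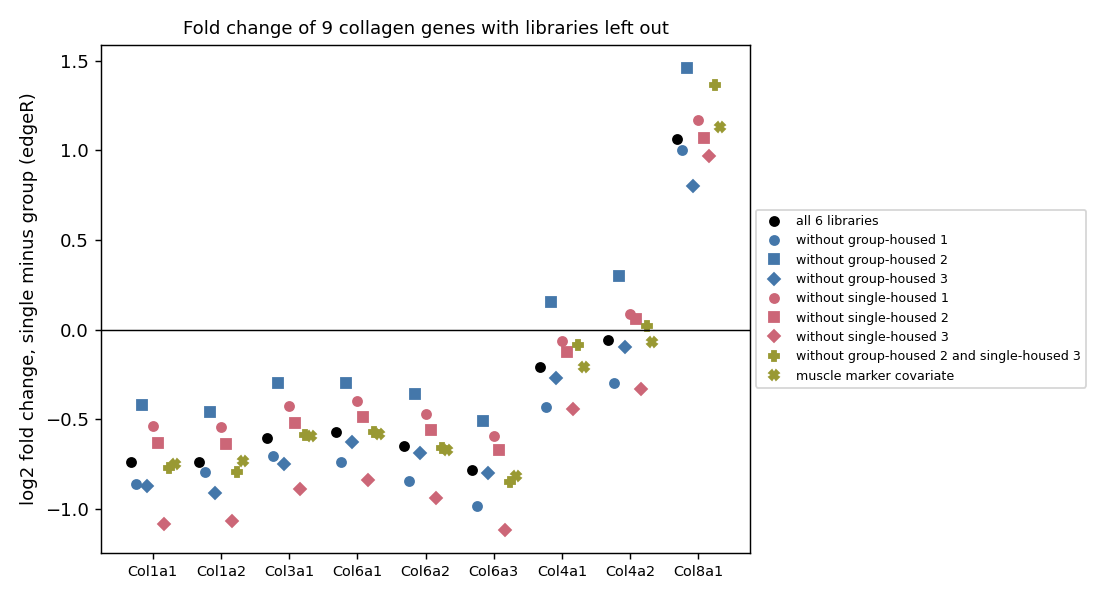
Log2 fold change (single minus group, edgeR) of 9 collagen genes with all 6 libraries, with each library left out, without both muscle-rich libraries and with a muscle marker covariate. Col1a1, Col1a2, Col3a1 and Col6a1 to Col6a3 stay below 0 in each fit shown, Col8a1 stays above 0, and Col4a1 and Col4a2 cross 0.

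Ratios between chains within a library do not depend on library size or on the scaling factor of the library. They can still depend on the cell make-up of the tissue, and its part in them was not tested. The type I helix is built of Col1a1 and Col1a2 chains, and their FPKM ratio was 1.00, 1.16 and 1.21 in group and 1.10, 1.11 and 1.14 in single housing. The means were 1.12 ± 0.109 and 1.12 ± 0.019 (SD, n = 3), with an exact permutation p of 1.0, two-sided. The ratio of Col3a1 to Col1a1 was 3.09, 2.94 and 2.91 in group and 3.44, 3.39 and 3.11 in single housing, higher in all 3 single-housed libraries. That of Col4a1 to Col4a2 was 1.83, 1.77 and 1.71 against 1.59, 1.68 and 1.53, lower in all 3. Both gave an exact permutation p of 0.1, two-sided, the smallest that 3 against 3 allows, or 0.15 after Benjamini-Hochberg adjustment over the 3 ratios.

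The size of a ratio depends on the length used for each gene, while its comparison between groups does not. FPKM divide by the summed exon length, which for Col1a2 is 12426 bases where its longest coding transcript has 5348. Per longest coding transcript the Col1a1 to Col1a2 ratio averaged 0.536 in group and 0.534 in single housing. The ratio of Col3a1 to Col1a1 then averaged 4.75 and 5.28, and that of Col4a1 to Col4a2 1.95 and 1.76. Of ratios chosen after the values were seen and not tested, Col6a3 to Col6a2 averaged 0.902 ± 0.0184 in group and 0.816 ± 0.0318 in single housing (SD, n = 3). Col4a1 to Col1a1, basement membrane against fibre, was 1.57, 2.02 and 2.23 in group and 3.17, 2.93 and 2.57 in single housing, without overlap.

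**Figure D5:**
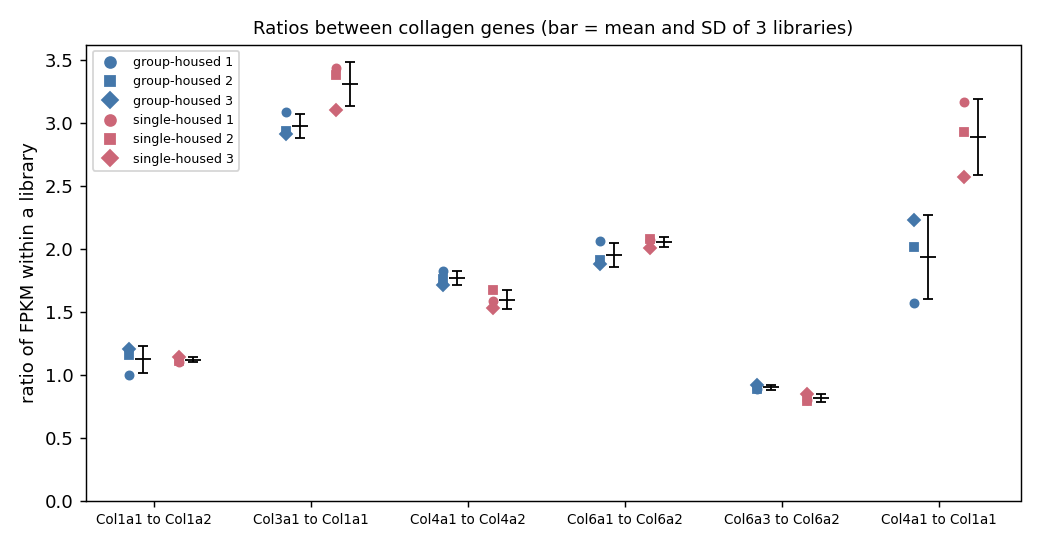
Ratios of FPKM between collagen genes within each library, with 1 point per library, colour for housing, shape for library number, and bars for the mean and SD of 3 libraries. Col3a1 to Col1a1 and Col4a1 to Col1a1 are higher, and Col4a1 to Col4a2 and Col6a3 to Col6a2 lower, in all 3 single-housed libraries, while Col1a1 to Col1a2 overlaps.

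Genes that make, process, bind and remove collagen were described next, and none passed at an adjusted p below 0.05 by edgeR. Their counts stand beside 51.9% of all tested genes below 0 and 48.1% above 0, and, at an unadjusted p below 0.05, 3.47% lower and 3.49% higher. Of 19 tested genes of chain hydroxylation and folding, 14 had a log2 fold change below 0 (median -0.16), and 0 were higher and 1 lower at that unadjusted p. That gene was Fkbp10, a chaperone of procollagen, at 4.41, 5.20 and 5.08 FPKM in group and 2.63, 3.34 and 3.11 FPKM in single housing. Its log2 fold change was -0.61 ± 0.17 (edgeR's adjusted p 0.577). Next by p were Colgalt2, a collagen glycosyltransferase, at 0.55 ± 0.24, and Ppib, a folding isomerase, at -0.17 ± 0.09.

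Of 13 tested genes of propeptide removal and cross-linking, 9 lay below 0 (median -0.28), where 51.9% of all genes did, and 0 were higher and 1 lower at an unadjusted p below 0.05, where 3.47% of all genes were lower. Loxl3, a lysyl oxidase that cross-links chains, stood at 3.33, 3.45 and 3.64 FPKM in group and 2.26, 2.23 and 1.99 FPKM in single housing. Its groups did not overlap, as in 6.78% of all genes after TMM scaling, and its log2 fold change was -0.60 ± 0.13 (edgeR's unadjusted p 0.00217, adjusted p 0.359). Pcolce, an enhancer of propeptide cleavage, had a log2 fold change of -0.40 ± 0.26 and the propeptidase Adamts14 one of -0.29 ± 0.21.

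Among 14 tested fibril-binding matrix proteins 1 was lower and 0 higher (median -0.03). Lum, the fibril-spacing proteoglycan lumican, stood at 51.6, 55.9 and 28.7 FPKM in group and 21.1, 20.7 and 30.2 FPKM in single housing, with overlap. Its log2 fold change was -0.83 ± 0.33 (edgeR's adjusted p 0.694), and those of the proteoglycans Bgn and Omd were -0.23 ± 0.14 and 0.98 ± 0.65. Of 14 basement membrane partners, 10 lay above 0 (median 0.08) and 0 had an unadjusted p below 0.05 in either direction. The 3 smallest p-values were those of the laminin chains Lamc3, at 0.43 ± 0.25, Lama3, at 0.37 ± 0.22, and Lamb1, at -0.39 ± 0.27.

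Of 11 tested collagen receptors, 1 was higher and 0 were lower at that unadjusted p (median 0.06). Itga1, a collagen-binding integrin chain, stood at 4.18, 5.17 and 5.38 FPKM in group and 5.86, 6.31 and 6.30 FPKM in single housing, without overlap, as in 6.61% of all genes after TMM scaling. Its log2 fold change was 0.42 ± 0.14 (edgeR's adjusted p 0.635). The integrin chain Itga11 had one of 0.85 ± 0.50 and the inhibitory receptor Lair1 one of -0.53 ± 0.37.

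Of the 7 pathway lists, collagen breakdown held the largest log2 fold change, and there 0 of 12 genes were higher and 2 lower at an unadjusted p below 0.05, where 3.47% of all genes were lower (median -0.09). Timp1, an inhibitor of matrix metalloproteinases, stood at 4.19, 8.45 and 12.3 FPKM in group and 0.83, 0.79 and 0.64 FPKM in single housing. The log2 fold change of Timp1 was -3.36 ± 0.41 (edgeR's unadjusted p 7.7e-05, adjusted p 0.12). Mmp8, a collagenase of neutrophils, stood at 0.22, 0.36 and 0.59 FPKM against 0.14, 0.04 and 0.07 FPKM, and its log2 fold change was -2.07 ± 0.54 (edgeR's adjusted p 0.493). Neither gene overlapped between the groups, as in 6.78% of all genes after TMM scaling, and Timp1 lies inside Syn1 on the opposite strand, so its reads are certain only if the strand was used. Timp3, a matrix-bound inhibitor, had a log2 fold change of 0.49 ± 0.24.

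TGF-beta signalling, a pathway that drives collagen transcription, gave small differences in the genes named here. The ligand Tgfb1 stood at 11.8, 8.28 and 15.03 FPKM in group and 10.3, 11.1 and 5.89 FPKM in single housing, with overlap. Its inhibitory mediator Smad7 stood at 5.85, 3.72 and 5.75 FPKM against 4.73, 4.76 and 2.76 FPKM, also with overlap. The log2 fold changes were -0.28 ± 0.24 for Tgfb1 and -0.24 ± 0.22 for Smad7, with adjusted p of 0.858 and 0.858 by edgeR.

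Markers of cell types that the tissue could hold were set beside these values. The 13 fibroblast and progenitor markers summed to 289.5, 357 and 318 FPKM in group and 219, 235 and 252 FPKM in single housing, without overlap. Ly6a, a progenitor surface protein, made up much of that sum, and the other 12 summed to 145, 127 and 138.5 FPKM against 119, 128 and 121 FPKM, with overlap, a sum added after the values were seen. Of the 13, 8 had a log2 fold change below 0 (51.9% of all genes) and 5 above, with a median of -0.10, and 1 was lower (Ly6a) and 0 higher at an unadjusted p below 0.05.

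The 10 endothelial markers summed to 171, 197 and 171 FPKM in group and 198, 217 and 237 FPKM in single housing. Of these 9 lay above 0, where 48.1% of all genes did, and 3 were higher (Kdr, Emcn and Cdh5), where 3.49% were, with a median of 0.45. The 10 macrophage markers summed to 1332, 894.7 and 1336 FPKM against 868, 927 and 625 FPKM, and single-housed library 2 lay above group-housed library 2. Lyz2 made up much of that sum, at 1063, 631 and 1060 FPKM against 691, 737 and 426 FPKM, with overlap. The mean log2 scaled counts of the 10 genes were 6.15, 6.18 and 6.28 against 5.46, 5.64 and 5.67, without overlap. This mean was added after the values were seen and was not tested. Of the 10 markers, 9 had a log2 fold change below 0, with a median of -0.46. At an unadjusted p below 0.05, 5 were lower (Itgam, Fcgr1, C1qb, Cd68 and C1qa), where 3.47% of all genes were.

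The 10 pericyte and smooth muscle markers summed to 119, 153 and 147 FPKM in group and 128.5, 135 and 160.4 FPKM in single housing, with 2 higher (Kcnj8 and Abcc9) and 1 lower (Tagln). The 8 Schwann cell markers summed to 56.6, 56.2 and 39.3 FPKM against 43.4, 49.6 and 80.4 FPKM, with 1 higher (S100b). Both of these sums overlapped between the groups. None of the markers of these 5 cell types was at 0 in all libraries, and none passed at an adjusted p below 0.05 by edgeR. The part of these cell types in the collagen values was not tested.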

How the data were processed

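RNA-seq of inguinal fat of 6 mice was used, with the housing groups taken from the sample titles. Per the labels' protocols, RNA was extracted with TRIzol and treated with DNase I, and RNA integrity numbers were above 8. The build was mm39, per the submitters' processing notes. For the aligner, counter, annotation and strand setting, nothing is stated in the labels or headers. The deposited table holds raw counts per gene, not normalized per the file headers, and FPKM that the authors made from them: 100% of the FPKM equalled counts per kilobase of summed exon length, scaled to the library total, within 0.0051, so they carry no composition correction. The 24 columns of per-sample values named for other tissues match no sample here and were not used. The 2639 genes without a symbol stayed in the test.

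Counts were tested with edgeR 4.0.16 in R 4.3.3 (filterByExpr, TMM, two-sided quasi-likelihood F test, Benjamini-Hochberg adjustment over 18085 genes, threshold 0.05). As the labels do not tie mice to cages or litters, p-values measure only the spread between these mice. Alternatives were DESeq2 1.42.0, relative log expression size factors, no low-count filter, limma 3.58.1 on log2(FPKM + 1) and log2(FPKM + 0.1) for genes averaging at least 1 FPKM, each library left out, a block on replicate number, the fit without the 2 muscle-rich libraries, and a muscle marker covariate. Ratios were compared with exact permutation tests (scipy 1.17.1). The self-test on simulated counts ran before the fits.

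Members, classes and gene lists were chosen with earlier results of these data known. Values in every library are given for the 3 most abundant genes of the fibrillar, type IV and type VI classes and the 2 most abundant of each other class (at least 1 FPKM), and for members with an unadjusted p below 0.05 or groups without overlap. Of each pathway list the 3 genes of smallest p are named, except that 1 gene of the TGF-beta list, and that list's counts, are not reported here. Col6a4, the share of type IV and the ratios given as untested were added after their values were seen. Coordinates of genes are those of the deposited table, and promoter sequences are RefSeq's, on GRCm38.p6.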

Additional observations from a re-analysis of the deposited data

How the results depend on the processing

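No collagen gene was called by DESeq2, relative log expression scaling, no filter, either limma fit, the block, any fit without 1 library or the fit without both muscle-rich libraries, and 4 were called with the muscle covariate. Over all genes the count was 0 by edgeR, 207 by DESeq2, 53 without the low-count filter, 22 without the muscle-rich libraries and 1027 with the covariate. Collagens higher at an unadjusted p below 0.05 numbered 2, Col8a1 and Col13a1. The number was 1 with the block, 4 with the covariate and 0 to 3 with 1 library left out. Both limma fits gave 0, but Col8a1 and Col13a1 averaged less than 1 FPKM and were not in those fits. Collagens lower numbered 2, against 5 by DESeq2, 7 without the filter, and 6 and 6 by limma with pseudocounts of 1 and 0.1. The number was 1 with the block, 12 without the muscle-rich libraries, 9 with the covariate and 0 to 10 with 1 library left out. With 1 library left out, the median log2 fold change of the collagens ran from -0.33 to 0.03, and the difference in their share of counts from -0.243 to -0.0957 percentage points. The difference in the Col1a1 to Col1a2 ratio ran from -0.0662 to 0.038 and changed sign, that of Col3a1 to Col1a1 from 0.268 to 0.433, and that of Col4a1 to Col4a2 from -0.209 to -0.136.

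Log2 fold changes near 0 changed sign. With 1 library left out, Col5a3 ran from -0.39 to 0.0433, Col4a1 from -0.44 to 0.15, Col4a2 from -0.33 to 0.30, Col4a5 from -0.23 to 0.32, Col14a1 from -0.23 to 0.29 and Col23a1 from -0.0234 to 0.23. Without the muscle-rich libraries Col4a2 was 0.0192 and Col14a1 -0.18, and by limma Col14a1 was -0.0116 and -0.0267 with pseudocounts of 1 and 0.1, and Col4a5 was -0.0047 with a pseudocount of 1. The cause was not tested. The FPKM scale of limma shifts all genes, with a median of -0.09 with a pseudocount of 1 and -0.11 with 0.1, beside -0.31 and -0.33 for the 21 collagens it holds. Replicate numbers did not pair the libraries: the deviations of same-numbered libraries correlated at 0.204, -0.638 and -0.737, and 1 of 6 libraries was closest to its own number. With the replicate block 0 genes were called, and the 1 collagen higher and 1 lower at an unadjusted p below 0.05 stood beside 1.39% and 1.87% of all genes. Genes under 1 FPKM rest on few counts, and a difference there may not be detectable at this depth.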
